A study of Mus musculus with 4 samples.

Results

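The oligosaccharyltransferase is the enzyme of the endoplasmic reticulum membrane that attaches sugar chains to asparagine residues of proteins as they enter the secretory pathway. Its mRNAs were followed here between pseudopodia and cell bodies of NIH/3T3 cells, an established fibroblast line from mouse embryos. The members were every probe set whose only gene symbol in the platform annotation is 1 of 9 listed subunit genes: Stt3a, Stt3b, Rpn1, Rpn2, Ddost, Tusc3, Magt1, Dad1 and Ostc. This gave 21 probe sets of 45037 non-control probe sets, and all 9 genes of 18193 genes with a probe set of their own. The arrays held 2 samples of pseudopodia and 2 samples of cell bodies, 1 array each. Every sample came from cells kept without serum above a filter with pores, of which only the lower face carried fibronectin. They had 1 h to send protrusions through the pores and were then fixed in 0.3% formaldehyde for 10 min. Pseudopodia were scraped from the lower face after the cell bodies had been wiped off by hand, and cell bodies from the upper face after the pseudopodia had been wiped off. In every sample the fixation was reversed at 70 °C for 45 min. No sample without fibronectin and no whole-cell sample was used here. The labels do not say whether the 2 samples of a compartment were grown separately. A p-value here therefore covers just the spread among these samples, and that spread may be technical.

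In mammals a sugar chain is first built on the lipid dolichol, and the oligosaccharyltransferase then moves it as a block to the growing protein. The enzyme exists in separate forms, each around its own catalytic subunit. The STT3A form sits at the protein-conducting channel and acts during translation, and OSTC belongs to this form. The STT3B form also reaches sites that the STT3A form has missed, and it carries TUSC3 or MAGT1, paired oxidoreductases of which a complex holds one. RPN1, RPN2, DDOST and DAD1 are found in both forms. Many proteins that fibroblasts secrete into the matrix carry such chains. The mRNAs are translated on the reticulum membrane. In size, STT3A, STT3B, RPN1, RPN2 and DDOST are large proteins, DAD1 and OSTC are small, and TUSC3 and MAGT1 lie between.

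The subunit mRNAs were lower in pseudopodia than in cell bodies at most of the members. Of the 9 genes, each read at its brightest probe set, 5 fell, 0 rose and 4 did not pass the test. The members that fell were Rpn2, Ddost, Tusc3, Rpn1 and Dad1. Over all 11320 genes tested, 8.69% fell and 5.92% rose. The median log2 difference of the 9 members was -0.59, against -0.0020 over all genes tested, and 8 of the 9 differences were below 0, as were 50.3% of all. By at least 2-fold, 3 members fell, Rpn2, Ddost and Tusc3, against 5.59% of all tested genes. At 8 members both pseudopodia arrays read below both cell body arrays, an arrangement that 31.4% of all tested genes showed. At Magt1 both pseudopodia arrays read above both cell body arrays, as did 29.5% of all tested genes. Differences are pseudopodia minus cell body on the scale of log2(intensity + 1), tested with limma and adjusted over all tested genes by the method of Benjamini and Hochberg, at a threshold of 0.05. A fold is the antilog of such a difference. In extracts of this kind, fewer protrusions that hold an mRNA and less of it in each protrusion cannot be told apart.

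**Figure D1:**
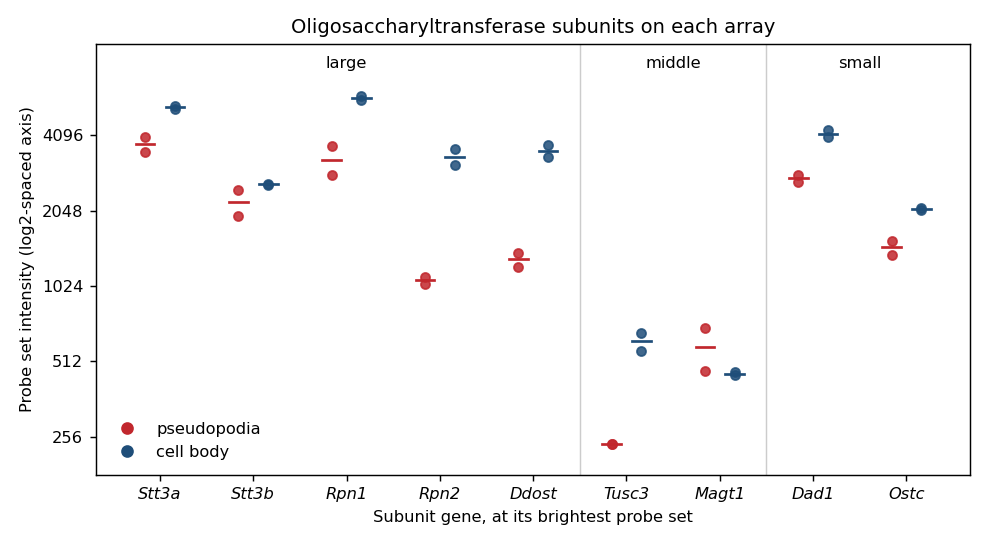
Intensity of the brightest probe set of each subunit gene on each array, on a log2-spaced axis; red points are the 2 pseudopodia arrays, blue points the 2 cell body arrays, and short lines their means. The red points lie below the blue ones at 8 genes and above them at Magt1.

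These calls need all 4 arrays. Leaving out any 1 of them, limma called 0 of the 9 members and 0 of all genes, while 5 to 7 members had an unadjusted p under 0.05. All arrays together gave 7 such members. Without a filter on low values limma called 0 members, and again 7 had an unadjusted p under 0.05.

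The catalytic subunits, at their brightest probe sets, had smaller log2 differences than the other large subunits, a contrast that was not tested. Stt3a encodes the catalytic subunit of the form bound to the channel. At its brightest probe set it gave 3499 and 4052 on the pseudopodia arrays, against 5392 and 5205 on the cell body arrays. The groups did not overlap, and the log2 difference of -0.49 (SE 0.14, 95% interval -0.86 to -0.12) had an adjusted p of 0.0860 in limma. Its second probe set, dimmer and not marked by its name as one that can match other transcripts, read 1037 and 1153 on the pseudopodia arrays, against 2639 and 2447 on the cell body arrays. That probe set fell by 1.22 (SE 0.15, adjusted p = 0.0245 in limma fitted to single probe sets). The third probe set of Stt3a was dim, at 55.5 and 72.7 in pseudopodia and 105 and 93.7 in cell bodies, with a log2 difference of -0.64 (adjusted p = 0.107). The value for Stt3a depended on the probe set. With probe sets that can match several transcripts left out, its gene-level value was -1.22 (adjusted p = 0.0150).

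Stt3b encodes the other catalytic subunit. At its brightest probe set it gave 1943 and 2482 on the pseudopodia arrays, against 2604 and 2624 on the cell body arrays. One pseudopodia array lay close to the cell body arrays and the other below them. The log2 difference was -0.25 (SE 0.17, adjusted p = 0.380 in limma), with a 95% interval of -0.69 to 0.19. The second probe set, at 296 and 316 in pseudopodia and 566 and 452 in cell bodies, had a difference of -0.72 (SE 0.18, adjusted p = 0.0682 in the fit of single probe sets). Neither probe set of Stt3b passed the threshold, and both read lower in pseudopodia. The difference between Stt3a and Stt3b was not tested.

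Among the subunits that both forms share, Rpn2 and Ddost changed most. Rpn2, ribophorin II, is an integral membrane subunit. It read 1045 and 1116 on the pseudopodia arrays, against 3599.8 and 3131 on the cell body arrays, which is 1080.3 ± 50.1 against 3365 ± 331 (SD, n = 2). It fell by 1.64 (SE 0.14, adjusted p = 0.0166 in limma), so that it was 3.11-fold higher in cell bodies. The gap between the groups was several times the spread within either one. Of the 11320 tested genes, Rpn2 ranked 112 from the lowest difference.

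Ddost encodes the subunit also known as OST48. It read 1221 and 1393 on the pseudopodia arrays, against 3742 and 3366 on the cell body arrays. It fell by 1.44 (SE 0.15, adjusted p = 0.0166 in limma), which is 2.72-fold higher in cell bodies, and ranked 216 from the lowest. Rpn2 and Ddost have 1 probe set each, so no second reading of either was at hand.

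Rpn1, ribophorin I, is the subunit with the most probe sets, 6, of which 1 lay at the floor of 20 on every array. The brightest read 2835 and 3707 on the pseudopodia arrays, against 5889 and 5651 on the cell body arrays. It fell by 0.83 (SE 0.18, adjusted p = 0.0437 in limma), or 1.78-fold higher in cell bodies. The pseudopodia arrays differed from each other more than the cell body arrays did, with replicate 1 the lower. All 5 probe sets of Rpn1 above the filter read lower on both pseudopodia arrays, with log2 differences of -1.30 to -0.83. In the fit of single probe sets, 2 of the 5 passed, at -1.30 (adjusted p = 0.0265) and -1.27 (adjusted p = 0.0269), and the brightest did not (adjusted p = 0.0579). They stand for 1 mRNA and can share probes, so they are not 5 separate results. The gene-level call was lost under quantile normalization (-0.71, adjusted p = 0.0650).

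Dad1 encodes a small membrane subunit, named for its part in keeping a hamster cell line from dying. It read 2842 and 2671 on the pseudopodia arrays, against 4299.9 and 4028 on the cell body arrays. It fell by 0.59 (SE 0.13, adjusted p = 0.0478 in limma), or 1.51-fold higher in cell bodies, a call close to the threshold. In the fit of single probe sets the same probe set did not pass (adjusted p = 0.0669). The second probe set gave 1752 and 1849 in pseudopodia, against 2402 and 2284 in cell bodies, with a difference of -0.38 (adjusted p = 0.161 in the fit of single probe sets). Both probe sets were lower in pseudopodia without overlap. The call was lost under quantile normalization (adjusted p = 0.0744), median centring (0.0526) and the mean over both probe sets (0.0586), all with the same direction. It was lost too without a filter on low values (0.0898) and at the dimmest probe set (0.209), again with that direction.

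Of the oxidoreductases of the STT3B form, Tusc3 fell and Magt1 did not pass the test. Tusc3 read 239 and 239 on the pseudopodia arrays, against 666 and 562 on the cell body arrays. It fell by 1.35 (SE 0.15, adjusted p = 0.0166 in limma), or 2.56-fold higher in cell bodies, and ranked 287 from the lowest difference. It has 1 probe set. Magt1, its close relative, read 466 and 697 on the pseudopodia arrays, against 451 and 464 on the cell body arrays. Pseudopodia replicate 2 stood well above the other 3 arrays, and pseudopodia replicate 1 was near the cell bodies. The log2 difference of 0.32 (SE 0.22, 95% interval -0.26 to 0.90) had an adjusted p of 0.405. Without pseudopodia replicate 2 it was 0.027, and without pseudopodia replicate 1 it was 0.61 (adjusted p = 0.150). The second probe set of Magt1, at 215 and 367 in pseudopodia and 316 and 313 in cell bodies, overlapped between compartments and had a difference of -0.16 (adjusted p = 0.761). Magt1 therefore had no settled direction here. The 95% intervals of Tusc3, which ends at -0.97, and of Magt1 did not meet, but the difference between these paralogs was not tested.

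Ostc, the small accessory subunit of the STT3A form, read 1365 and 1554 on the pseudopodia arrays, against 2092 and 2051 on the cell body arrays. The groups did not overlap, and the log2 difference of -0.51 (SE 0.14, 95% interval -0.87 to -0.15) had an adjusted p of 0.0758. It passed with a pseudocount of 50 (adjusted p = 0.0406), a stricter filter (0.0476) and a variance prior that follows intensity (0.0123). The dim second probe set gave 35.5 and 85.6 in pseudopodia and 126 and 128 in cell bodies. Its difference was -1.19 with an SE of 0.43, since pseudopodia replicate 1 lay near the floor.

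**Figure D2:**
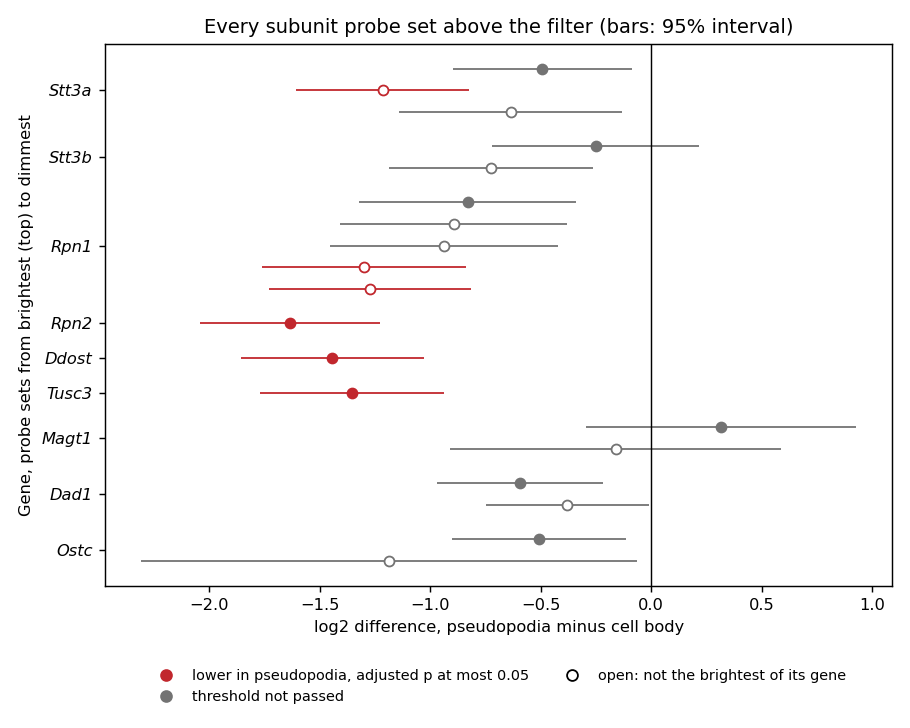
Log2 difference, pseudopodia minus cell body, of the 19 subunit probe sets above the filter, from the fit of single probe sets; bars are 95% intervals, filled points are the brightest probe set of a gene, and red marks an adjusted p of at most 0.05. The 6 red points belong to Stt3a, Rpn1, Rpn2, Ddost and Tusc3, and 1 point, of Magt1, lies above 0.

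Taken probe set by probe set, 19 of the 21 members passed the filter on low values, and the other 2, of Stt3a and Rpn1, lay at the floor on every array. Of the 19, 18 had a difference below 0, 6 fell and 0 rose. Of the 22519 probe sets tested in this way 7.44% fell and 4.3% rose. Both pseudopodia arrays read below both cell body arrays at 17 of the 19, as they did at 30.9% of all tested probe sets.

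Probe sets of 1 gene differed in the size of the loss. Of the 6 members with several probe sets above the filter, the dimmest read a more negative difference than the brightest at 5, and at Dad1 the order was the other way. The median of the dimmest minus the brightest was -0.46 over these 6 members. Over the 4916 genes with several probe sets above the filter it was -0.019, and the dimmest was the more negative at 51.8%. Among the 456 such genes that fell at their brightest probe set, the dimmest was the more negative at 36.4%. That choice in itself favours a less negative dimmest probe set, so the share is no like comparison for the 6 members. Of those 6, only Rpn1 and Dad1 fell at their brightest probe set. With each gene read at its dimmest probe set above the filter, a setting chosen after seeing the data, the median of the 9 members was -1.19, and 4 of them fell. How far probes shared with other transcripts, or the brightness itself, bear on this was not tested. The bright end of the scale held smaller differences in general: the SD of the log2 difference was 0.261 over the 494 genes with a mean log2 of 12 or more, against 0.539 over the 3454 genes between 9 and 11. Of the members, Rpn1 and Stt3a lie in the brightest of these ranges and Rpn2 and Ostc in the range from 9 to 11.

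**Figure D3:**
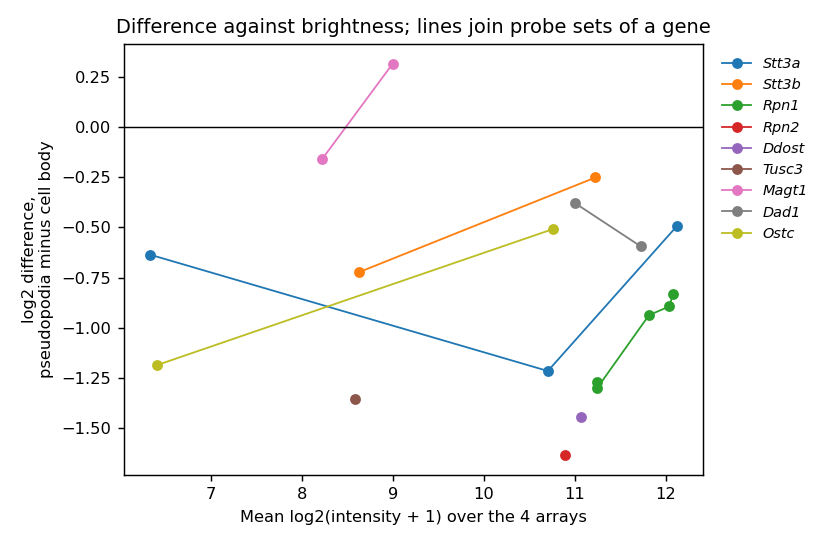
Log2 difference, pseudopodia minus cell body, against mean log2(intensity + 1) over the 4 arrays for the 19 subunit probe sets above the filter; lines join the probe sets of a gene. The right end of the line is the higher one for every gene with several probe sets except Dad1.

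The mean difference over the large subunits was further below 0 than that over the small ones, while single subunits of the classes overlapped. With each gene centred on its own mean, the 5 large subunits averaged -0.59 and -0.34 on the pseudopodia arrays, against 0.51 and 0.42 on the cell body arrays. The 2 small subunits averaged -0.30 and -0.25 on the pseudopodia arrays, against 0.31 and 0.25 on the cell body arrays. The mean log2 difference was -0.93 for the large subunits and -0.55 for the small ones, so that large minus small was -0.38. That contrast, array by array, was -0.29 and -0.090 in pseudopodia, against 0.20 and 0.17 in cell bodies, with a pooled SD of 0.10 between arrays of a compartment. It was -0.40 with Tusc3 and Magt1 counted among the small subunits.

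The size classes did not separate gene by gene. Of the 5 large subunits 3 fell, with differences from -1.64 to -0.25, and both small ones, at -0.59 and -0.51, lay inside that range. At -0.49 and -0.25, the catalytic subunits Stt3a and Stt3b had differences no further below 0 than those of the small subunits at their brightest probe sets, though Stt3a and Ostc lay within their SEs of each other. Without probe sets that match several transcripts Stt3a was at -1.22 and Ostc at -0.51. The large subunits below both small ones were Rpn2, Ddost and Rpn1. The contrast of sizes is a description and was not tested. An exact permutation test over samples, with 3 ways to split 4 arrays into pairs, could not give a p under 0.333.

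Further small proteins of the complex, outside the listed genes, differed little between compartments at their brightest probe sets. Ost4, which encodes a very small membrane subunit, read 7221 and 7002 on the pseudopodia arrays, against 7229 and 6818 on the cell body arrays, a log2 difference of 0.018 (SE 0.13, 95% interval -0.32 to 0.35). Krtcap2, an accessory of the STT3A form like Ostc, read 4287 and 4452 in pseudopodia, against 5182 and 4498 in cell bodies, a difference of -0.14 (95% interval -0.51 to 0.22). Tmem258 was dim, at 54.6 and 57.1 in pseudopodia and 52.8 and 64.5 in cell bodies, with a difference of -0.063 (95% interval -0.47 to 0.34). None of the 3 passed the limma test (adjusted p = 0.942, 0.557 and 0.825), with 0 of them at the unadjusted threshold as well. The intervals of Ost4, Krtcap2 and Tmem258 leave room for losses as large as a log2 difference of -0.32, -0.51 and -0.47. The second probe set of Tmem258 had a difference of -0.96 (adjusted p = 0.119 in the fit of single probe sets), and that of Ost4, also dim, of 0.70 (adjusted p = 0.268). Ost4 and Krtcap2 lie in the brightest range, where differences were small in general.

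The sequence before the start of transcription was compared for the members that the RefSeq promoter table of build GRCm38.p6 holds, 7 of the 9 genes, all but Tusc3 and Ostc. The CCAAT box, a common promoter element, was searched as CCAAT on both strands within 250 bases before the start. It occurred before the start of 7 of these 7 genes and of 37.5% of the 27025 genes in the table. Those 27025 include genes that were not tested on these arrays, so the share is no matched comparison. CCACG, the other part of the element that responds to stress of the reticulum, occurred at 3 of 7 members and at 31.0% of all genes. The full element, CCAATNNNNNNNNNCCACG, occurred at 0 of 7 members and 0.130% of all genes. A full element would be counted in each of the shorter searches too. The windows of the member that fell most, of the next one, of the small subunit Dad1 and of Magt1, which had no settled direction, are shown over the 150 bases before the start, with CCAAT on either strand in capitals.
Rpn2, chr2:157278948-157279097, plus strand: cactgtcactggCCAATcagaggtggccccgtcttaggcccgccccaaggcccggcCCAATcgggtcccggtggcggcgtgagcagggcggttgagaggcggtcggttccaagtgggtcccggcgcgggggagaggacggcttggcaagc
Ddost, chr4:138304588-138304737, plus strand: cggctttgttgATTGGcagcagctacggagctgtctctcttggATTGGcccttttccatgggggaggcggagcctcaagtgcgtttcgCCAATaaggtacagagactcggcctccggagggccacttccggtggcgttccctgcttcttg
Dad1, chr14:54253930-54254079, minus strand: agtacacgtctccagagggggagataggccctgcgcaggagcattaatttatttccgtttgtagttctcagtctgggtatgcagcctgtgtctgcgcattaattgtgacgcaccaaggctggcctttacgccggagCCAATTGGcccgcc
Magt1, chrX:106011803-106011952, minus strand: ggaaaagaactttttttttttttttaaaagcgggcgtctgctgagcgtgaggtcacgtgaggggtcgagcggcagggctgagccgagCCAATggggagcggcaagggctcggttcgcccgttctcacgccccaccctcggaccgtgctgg
Within these 150 bases Ddost holds 3 such matches, Rpn2 2, Dad1 2 that overlap each other, and Magt1 1. Over the full 250 bases searched the order differs, with 4 at Magt1, 3 at Ddost, 3 at Rpn2 and 2 at Dad1. A second annotated start of Rpn2, further downstream, has 0 within 250 bases. These matches describe the letters of the windows and are no sites of binding. The arrays compare compartments of the same cells and measure no promoter.

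Enzymes that supply the oligosaccharyltransferase, or act after it, were read from further lists. Of 20 tested genes that build the sugar chain on dolichol, 10 fell and 0 rose, with a median of -0.70. Over all tested genes 8.69% fell and 5.92% rose. Dolk, the kinase that makes dolichol phosphate, read 199 and 212 on the pseudopodia arrays, against 669 and 683 on the cell body arrays, and fell by 1.71 (SE 0.13, adjusted p = 0.0166 in limma). Several glucose and mannose transfer enzymes fell as well, with log2 differences of -1.63 at Alg5, -1.35 at Alg1, -1.30 at Alg3, -1.23 at Alg12, -1.23 at Alg2, -1.03 at Alg9 and -0.92 at Alg8. The transfer enzymes Alg6, Alg10b and Alg11 did not pass, at -0.35, -0.27 and -0.12. Alg12 had dimmer probe sets with differences of -0.38 and 0.42, neither past the threshold. Dpagt1, which starts the chain, had a difference of -0.75 (SE 0.14, adjusted p = 0.0348). Of the members that did not pass, Nus1, Dpm1 and Alg14 had differences above 0, at 0.58, 0.29 and 0.16. With the dimmest probe set above the filter for each gene, 6 of the 20 fell.

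Of 15 tested genes that trim the chain or use it in quality control, 8 fell and 1 rose, with a median of -0.91. Among all tested genes 8.69% fell and 5.92% rose. The glucosidases act first on the transferred chain. Mogs, glucosidase I, read 679.7 and 925 on the pseudopodia arrays, against 2543 and 2544 on the cell body arrays, and fell by 1.68 (SE 0.19). Both subunits of glucosidase II fell, with log2 differences of -1.33 (SE 0.14) at Ganab and -1.20 (SE 0.15) at Prkcsh. The cargo receptor Lman2 and Mcfd2, the partner of the receptor Lman1, each had a difference of -1.03, and the mannosidase-like Edem2 and Edem3 had differences of -1.04 and -0.64, all past the threshold. The lectin chaperone Calr fell by 0.66 (adjusted p = 0.0487), while the related Canx had a difference of -0.045 (SE 0.13, adjusted p = 0.856). In the fit of single probe sets no probe set of Calr passed (adjusted p = 0.0664, 0.0708 and 0.0802), nor did that of Edem3 (0.0586). The gene that rose was Ngly1, a cytosolic enzyme that removes such chains from misfolded proteins, at 225 and 197 in pseudopodia, against 109.6 and 65.8 in cell bodies, by 1.30 (SE 0.27, adjusted p = 0.0415). Ngly1 has 1 probe set, and its adjusted p in the fit of single probe sets was 0.0533.

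Of 18 tested genes of the protein-conducting channel and of signal peptide removal, 9 fell and 0 rose, with a median of -0.61. The shares over all tested genes were 8.69% and 5.92%. The channel subunits Sec61a2 and Sec61a1 fell, with log2 differences of -1.81 (SE 0.14) and -0.72 (SE 0.16, adjusted p = 0.0487). The value of Sec61a1 depended on the probe set: its 6 probe sets ranged from -2.49 to -0.72, and in the fit of single probe sets 4 of them fell and the brightest did not pass (adjusted p = 0.0654). The signal recognition particle receptor subunits Srprb and Srpr fell too, at -1.14 and -1.04, as did the translocating chain protein Tram2 at -1.16 and the signal peptidase subunit Spcs2 at -0.71. Of the translocon-associated proteins, Ssr2 and Ssr3 fell, at -1.24 and -0.65, and Ssr1 and Ssr4 had differences of -0.58 and -0.36 (adjusted p = 0.0618 and 0.133). In the fit of single probe sets a dimmer Tram2 probe set had a difference of 0.11 (adjusted p = 0.726). The brightest ones of Spcs2 and Ssr3 did not pass in that fit (0.0561 and 0.0516), and a dimmer one of each did (0.0241 and 0.0376). Sec61b, a small subunit of the channel, read 6118 and 5763 on the pseudopodia arrays, against 6252 and 5707 on the cell body arrays, a difference of -0.0086 (SE 0.14). With probe sets that can match several transcripts left out, 3 of 13 fell. No test compared these lists with the listed subunits, and the shares that fell, 5 of 9 for the subunits and 10 of 20, 8 of 15 and 9 of 18 for the other lists, are given side by side.

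**Figure D4:**
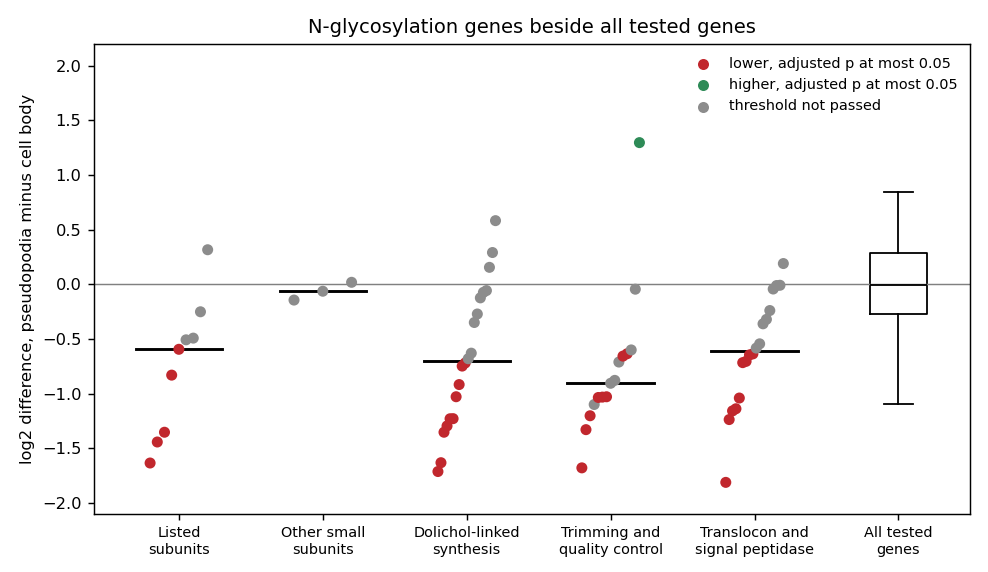
Log2 difference, pseudopodia minus cell body, of the listed subunits, of other small subunits and of 3 further lists of N-glycosylation and protein import genes; points are genes, black lines medians, and the box shows all 11320 tested genes with whiskers at the 5th and 95th percentiles. Medians of the listed subunits and of the 3 further lists lie from -0.91 to -0.59, and that of all genes is -0.0020.

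Outside these lists, the genes most like the 5 members that fell were Ctsd, Emc7, Tssc4, Adamts1 and Tmem161a, out of 11239 ranked. Likeness was the distance over the 4 arrays between log2 values centred on each gene's mean and the mean centred values of the 5 members. Ctsd encodes a lysosomal protease, and it was closest, at a distance of 0.014, with 2304 and 2473 on the pseudopodia arrays, against 5673 and 5145 on the cell body arrays. The others lay at 0.044 to 0.058, and with 4 arrays in 2 groups such closeness mostly reflects a like size of difference.

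The arrays themselves were alike in median level, with medians of 41.2 and 45.6 in pseudopodia and 44.3 and 40.5 in cell bodies, and the number of arrays limits the precision. Those medians lie near the floor. The median log2 difference was -0.081 over genes with a mean log2 from 11 to 12, and -0.082 over genes at 12 or more. These ranges hold 3 and 2 of the members. Under quantile normalization the median of the 9 members was -0.46. A floor of 20 held 30.5% to 34.8% of non-control probe sets. Of 11 fibroblast markers 8 passed the filter, of which 4 fell and 0 rose, beside 8.69% and 5.92% of all tested genes. Col1a1, Pdgfrb, Pdgfra and Col1a2 fell, and Col3a1, at -1.05, did not pass. S100a4, Vim and Lgals1 had log2 differences of -0.12, -0.098 and -0.095. The summed intensity of all 11, those under the filter included, was 50828 to 51032 in pseudopodia and 65386 to 70436 in cell bodies. Thy1 and Fap lay at the floor on all arrays. Of 8 epithelial markers 6 passed, with Krt18 and Esrp1 at the floor, and all 8 summed to 2647 to 2745 in pseudopodia and 2968 to 3812 in cell bodies, mostly Krt14. Of 8 haematopoietic markers 6 had a probe set of their own and 2 passed, with Itgam at the floor, and those 6 summed to 920.2 to 929 in pseudopodia and 1077 to 1225 in cell bodies. The log2 ratio of signal at the 3′ end to the 5′ end of the Actb control was 0.56 and 0.65 on the pseudopodia arrays, against 0.37 and 0.36 on the cell body arrays. The same ratio, pseudopodia minus cell body, differed by 0.026 for the Gapdh control and by 0.069, with overlapping groups, for the Pcx control. The fibroblast sums and the Actb ratio moved with the compartments, and their part in the subunits' differences was not tested.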

How the data were processed

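Total RNA from 4 samples was labelled with biotin and read on 1 Affymetrix Mouse430_2 array each, per the labels' protocols and the array records. The authors deposited 1 linear intensity per probe set and array, and the sources used here do not give the software or scaling behind it. Array records, deposited too, show 1 scanner, scan day, hybridization time, station and chip lot for all arrays. No further scaling was applied. Probe sets were named from the platform annotation (34945 with 1 symbol, 932 with several, 9160 with none); 34741 gene IDs matched the RefSeq table, and 0 symbols changed. Each gene was read at its brightest 1-symbol probe set. Genes with a mean log2(intensity + 1) under 5.42, the median of non-control probe sets, were left out, which left 11320 genes. Compartments were compared with limma 3.58.1 in R 4.3.3 (lmFit, eBayes, no covariate; 2 residual and 2.90 prior degrees of freedom). A second fit took each of 22519 probe sets on its own. The text names every member, up to 8 called genes of each other list by size, and 5 genes of like profile; other named genes were chosen after their values were seen. The members and lists were chosen with earlier results of these data known. Protein sequences were not used here. Replicate numbers 1 and 2 occur in both compartments, but nothing says that they pair samples. Alternatives covered the pseudocount, filter, scaling, choice of probe set, variance prior, replicate block and each array left out.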

Additional observations from a re-analysis of the deposited data

How the results depend on the processing

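Rpn2, Ddost and Tusc3 stayed below 0 under the 14, 15 and 14 alternatives run for them and lost the call only without a filter or with an array left out (adjusted p up to 0.0832). Stt3a, Stt3b, Rpn1, Dad1 and Ostc also stayed below 0 in every alternative. Many of the alternatives could not change the sign. The filter, variance prior and replicate block leave a log2 difference as it is. Leaving out an array cannot reverse it where the groups do not overlap, as at all of these members. For Rpn2, Ddost and Tusc3, with 1 probe set each, taking the mean or the dimmest probe set returns the same value. Magt1 turned to -0.16 with the dimmest probe set above the filter, a setting chosen after seeing the data. Over all genes limma called 1654, and 2 without a filter (2 lower, 0 higher), 2564 with a variance prior that follows intensity (1483 lower, 1081 higher) and 0 with any array left out (2797 to 2891 at an unadjusted p under 0.05). With dimmest probe sets 383 were higher. Of the members, 0 were called without a filter or with an array left out, 3 under quantile normalization, and 2 of 5 without probe sets that match several transcripts. That last setting could not test Rpn1, Rpn2, Tusc3 and Dad1, which keep no probe set above the filter in it. The median of the members was -0.85 with the mean over probe sets and -1.19 with the dimmest. Among their single probe sets, 0 were called without a filter or with an array left out. The lists on dolichol, trimming and the translocon likewise had 0 lower there; the dolichol list had 6 with dimmest probe sets, and the translocon list 3 without probe sets that match several transcripts. Large minus small lay from -0.48 to -0.28 over the alternatives; without probe sets that match several transcripts it was -0.46, from Stt3a, Stt3b and Ddost against Ostc alone. The median of all genes was 0.053 under quantile normalization.

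Replicate numbers gave 2 pairs, with deviations correlated at 0.33, too few to show pairing. With the replicate block, 2202 genes and 5 members were called, and large minus small was -0.38. Signal near the floor of 20 limits the dim probe sets of Stt3a, Ostc and Tmem258.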
